A study of Homo sapiens with 15 samples.

Results

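The transcripts described here are 10 long noncoding RNAs whose introns carry small nucleolar RNAs (snoRNAs): GAS5, SNHG1, SNHG5, SNHG6, SNHG8, SNHG12, SNHG15, SNHG16, SNHG29 and ZFAS1. They were chosen by name, as 10 of the 62754 genes in the deposited counts, and all 10 passed the filter on low counts that left 13828 genes for testing. RNA came from wild-type MCF10A, an established human mammary epithelial line, grown with 0.04, 0.12, 0.20 or 0.28 mM glutamine or in full medium with 2.5 mM, in 3 biological replicates per concentration (15 libraries). All groups shared DMEM/F12-based culture, a mammary epithelial supplement kit and cholera toxin, and the labels do not give the time spent in each medium. The limited media were made from a glutamine-free base. Ribosomal RNA was depleted from total RNA before sequencing.

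SNHG12, SNHG15 and ZFAS1 were lower in limited glutamine than in full medium, with changes of -24.3 to -31.3% where they passed the test. The abundant hosts SNHG29, SNHG16 and GAS5 did not pass the test at any concentration. No host passed the test between the lowest and the highest limited concentration. These calls come from a fit that takes the replicate number into account, and none of them passed in a fit without it. They also leaned on 1 library shared by all comparisons with full medium. Without full medium replicate 2, 0 hosts passed at 0.04, 0.20 and 0.28 mM and 1 at 0.12 mM, and fewer of all genes were called lower too. Replicate 1 of SNHG12 was not lower at any limited concentration.

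A snoRNA host gene is transcribed by RNA polymerase II and spliced, and its snoRNAs are trimmed out of the excised introns. Box C/D snoRNAs guide 2′-O-methylation and box H/ACA snoRNAs guide pseudouridylation, mostly of ribosomal RNA. The spliced host RNA itself codes for no conserved protein. Several hosts, GAS5 among them, begin with a terminal oligopyrimidine (TOP) tract, a C followed by pyrimidines at the start of the RNA that ties translation to growth signals through mTOR. Because their short reading frames stop early, translated host RNAs are degraded by nonsense-mediated decay (NMD), and GAS5 is known for accumulating when growth stops.

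The start regions of 6 hosts are printed first, because the base at the start and the tract after it are what define a TOP transcript. RefSeq (GRCh38.p14) gave a start region for 8 of the 10 hosts, and not for SNHG6 and SNHG15. Each line holds 50 bases on each side of the annotated start, read 5′ to 3′ along the transcript, with the longest pyrimidine run within 10 bases of the start in capitals. For SNHG12 and ZFAS1 the start used (28581873 and 49278642) lies inside the RefSeq gene, whose outer 5′ ends are 28582983 and 49278178. Which start these cells use was not tested.
SNHG12, chr1:28581824-28581923, minus strand: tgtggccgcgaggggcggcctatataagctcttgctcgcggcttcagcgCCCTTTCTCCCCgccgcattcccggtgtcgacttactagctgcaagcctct
ZFAS1, chr20:49278592-49278691, plus strand: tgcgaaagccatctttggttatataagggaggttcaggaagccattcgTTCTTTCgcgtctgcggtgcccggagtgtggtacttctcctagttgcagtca
SNHG5, chr6:85678684-85678783, minus strand: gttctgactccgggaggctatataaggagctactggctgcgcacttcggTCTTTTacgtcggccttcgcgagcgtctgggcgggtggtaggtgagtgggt
SNHG1, chr11:62855836-62855935, minus strand: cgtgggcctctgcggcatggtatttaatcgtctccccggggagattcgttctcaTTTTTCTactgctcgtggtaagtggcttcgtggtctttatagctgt
GAS5, chr1:173868996-173869095, minus strand: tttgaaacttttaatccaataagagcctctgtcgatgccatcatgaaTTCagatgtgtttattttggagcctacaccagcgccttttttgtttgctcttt
SNHG29, chr17:16438937-16439036, plus strand: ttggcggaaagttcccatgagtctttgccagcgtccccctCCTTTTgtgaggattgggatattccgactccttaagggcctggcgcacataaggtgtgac
Of these 8 regions, 5 began at a C (SNHG1, SNHG5, SNHG8, SNHG12 and ZFAS1), which is true of 14.7% of the 35116 RefSeq start regions. An unbroken run of at least 4 pyrimidines from that C was found in SNHG5, SNHG12 and ZFAS1, against 5.45% of all start regions. The run from the C was 11 bases long in SNHG12 and 5 bases in SNHG5 and ZFAS1. The same 3 hosts had the letters TATATAA in the 250 bases before and 50 after the start, beginning at positions -32 (SNHG5), -31 (ZFAS1) and -30 (SNHG12), against 2.57% of all start regions on either strand. GGGCGG, a motif bound by SP1, was found in 6 of the 8, against 45.0% of all, while CACGTG, bound by MYC, and TGATGNAA, bound by ATF4 dimers, were found in none of the 8 (7.26 and 3.62% of all). The 4-base minimum and TATATAA were picked after the sequences had been seen, both strands were searched for each motif, and a match is a description of letters only. The annotated start of GAS5 is an A, 3 pyrimidines precede it, and RefSeq starts were not compared with read ends.

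Libraries held 3704170 to 13361406 gene counts, with 1.03 to 1.58% of counts in ERCC spike-ins. Mitochondrial ribosomal RNA took 2.97% of gene counts in 0.04 mM replicate 3 and 1.62% in 0.12 mM replicate 3, which were also the shallowest libraries, and at most 0.402% in the other 13. Keratins of basal mammary cells were abundant in every library (KRT5 6058 to 7522 CPM, counts scaled to library size), while PTPRC, an immune marker, had 1 count in all libraries together and CDKN2A, which MCF10A lacks, had 0. The fibroblast markers DCN (13.1 to 45.6 CPM) and COL1A1 (11.9 to 41.8) and the endothelial marker PECAM1 (3.38 to 11.9) were present. Each rose at 0.04 mM in the main fit (log2 fold change 0.62, 0.46 and 0.81, edgeR adjusted p = 0.00108, 0.0193 and 0.0136). COL1A2, COL3A1, PDGFRB and LUM reached at most 1.36 CPM, and VWF and CDH5 at most 0.152. With the group means removed, libraries that share a replicate number correlated over all tested genes (r 0.184 to 0.489 in 30 of 30 pairs, against -0.406 to 0.0549 for different numbers), and what a number stands for is not stated in the labels. The main fit therefore has the replicate number as a block. Separate cultures per replicate are implied by the word biological in the labels and nothing else, so p-values measure the spread between these libraries.

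SNHG29, which hosts SNORD49A, SNORD49B and SNORD65, was the most abundant host. Its full-medium libraries had 423, 512 and 488 CPM (replicates 1, 2 and 3), and its mean was 507 ± 65.0 CPM (SD, n = 3) at 0.04 mM. SNHG16, host of the SNORD1 snoRNAs, had 246, 253 and 235 CPM in full medium, and GAS5 had 148, 229 and 178 CPM. For GAS5 the highest full-medium library stood well above the other 2, which lay within the range of the limited libraries. Per kilobase of annotated exon in full medium, SNHG29 was highest (126 ± 12.3 CPM per kb), followed by SNHG8 (79.7 ± 18.9), GAS5 (51.0 ± 11.4) and SNHG16 (45.7 ± 1.63). ZFAS1 (15.8 ± 1.66 CPM per kb), SNHG1 (15.5 ± 5.06) and SNHG6 (14.3 ± 4.64) came next. SNHG15 (7.62 ± 0.67), SNHG12 (7.14 ± 1.68) and SNHG5 (5.79 ± 2.11) were lowest. Neighbours in this order overlapped within 1 SD except SNHG29 over SNHG8, SNHG16 over ZFAS1 and SNHG6 over SNHG15. The lengths count every base in any annotated exon of a gene (923 for SNHG8, 3631 for GAS5 and 3756 for SNHG1). A single spliced RNA can be shorter, so the order depends on the annotation. ZFAS1, SNHG15 and SNHG12, the hosts that fell in limited glutamine, were among the 6 lowest in this order, with 65 to 434 counts per library.

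**Figure D1:**
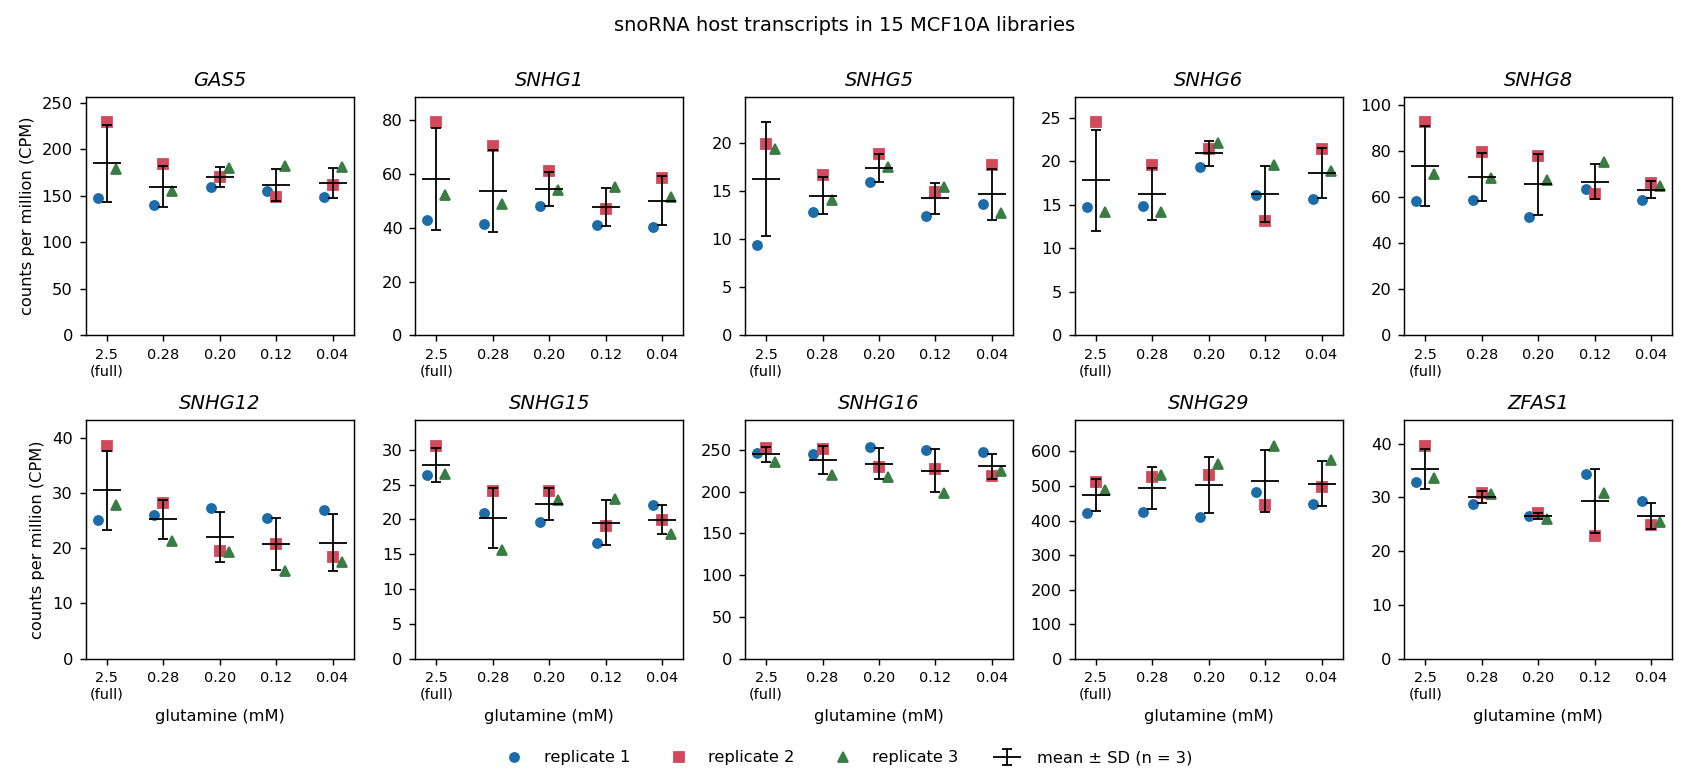
CPM of each host transcript (y axis, from 0) against glutamine concentration (x axis, mM, from full medium down), 1 point per library shaped and coloured by replicate number, with the group mean ± SD (n = 3) in black. SNHG15 is highest in the 3 full-medium libraries (26.3 to 30.6 CPM), and full medium replicate 2 is the top point in 8 of the 10 panels.

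SNHG12, whose introns hold SNORD99 and the H/ACA snoRNAs SNORA61, SNORA44 and SNORA16A, had the largest fitted decrease at 0.04 mM. Its full-medium libraries had 25.0, 38.6 and 27.8 CPM (replicates 1, 2 and 3) and its 0.04 mM libraries 26.9, 18.4 and 17.6 CPM. Replicates 2 and 3 were lower at 0.04 mM and replicate 1 was not, so the groups overlapped. SNHG12 was lower by a log2 fold change of -0.52 (SE 0.15, adjusted p = 0.0226, edgeR quasi-likelihood test with Benjamini-Hochberg adjustment), and lower in 2 of 3 pairs of equal number. The values at 0.12 mM were 25.5, 20.8 and 15.95 CPM and those at 0.20 mM 27.3, 19.5 and 19.4 CPM. At 0.28 mM they were 26.1, 28.2 and 21.4 CPM. Replicate 1 of SNHG12 thus stayed between 25.0 and 27.3 CPM in all 5 media, and the difference lay in replicates 2 and 3.

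SNHG15, which hosts SNORA9 and is known as a short-lived RNA, had 26.3, 30.6 and 26.5 CPM in full medium. The libraries at 0.04 mM had 22.1, 20.0 and 17.8 CPM, and those at 0.12 mM 16.6, 19.1 and 23.0 CPM. At 0.20 mM the values were 19.7, 24.1 and 22.8 CPM, and at 0.28 mM 21.0, 24.0 and 15.6 CPM. Every limited library of SNHG15 lay below every full-medium library, and each pair of equal number was lower in each of the 4 comparisons. The log2 fold change at 0.04 mM was -0.45 (SE 0.14, edgeR adjusted p = 0.0277).

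ZFAS1, a host of the SNORD12 family that is transcribed away from the opposite-strand gene ZNFX1 and was described in the developing mammary gland, had 32.9, 39.7 and 33.6 CPM in full medium. The values at 0.04 mM were 29.4, 24.9 and 25.4 CPM, at 0.20 mM 26.5, 27.0 and 26.0 CPM, and at 0.28 mM 28.9, 30.9 and 30.7 CPM. Each of these 3 groups lay wholly below full medium. At 0.12 mM the values were 34.5, 22.9 and 30.8 CPM, and replicate 1 reached into the full-medium range. The log2 fold change at 0.04 mM was -0.40 (SE 0.12, edgeR adjusted p = 0.0277).

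At 0.04 mM against full medium, 3 of the 10 hosts fell and 0 rose, where 6.23% of the 13828 tested genes fell. All 3 libraries at 0.04 mM lay below all 3 of full medium for 2 hosts (SNHG15 and ZFAS1), as they did for 8.21% of all genes. The median log2 fold change of the 10 hosts was -0.18, and that of all genes was 0.01. The other 7 hosts did not pass. GAS5 had -0.17 (SE 0.09, adjusted p = 0.224) and SNHG1, the host of SNORD22 and SNORD25 to SNORD31, had -0.20 (SE 0.11, adjusted p = 0.249). SNHG8, host of SNORA24, had -0.20 (SE 0.10, adjusted p = 0.212). SNHG16 (-0.09), SNHG5 (-0.07), SNHG6 (0.06) and SNHG29 (0.09) had edgeR adjusted p from 0.396 to 0.864.

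At 0.12 mM against full medium, SNHG15 (log2 fold change -0.54, SE 0.13, edgeR adjusted p = 0.009998) and SNHG12 (-0.54, SE 0.15, adjusted p = 0.0210) fell. That is 2 of 10, where 3.9% of all genes fell, and 1 host (SNHG15) lay wholly below full medium, where 6.66% of all genes did. ZFAS1 had -0.27 (SE 0.12, adjusted p = 0.173). At 0.20 mM, ZFAS1 (-0.42, SE 0.12, adjusted p = 0.0152) and SNHG12 (-0.46, SE 0.15, adjusted p = 0.0312) fell, 2 of 10 beside 7.15% of all genes. SNHG15 there had -0.33 (SE 0.13, adjusted p = 0.0823), although it and ZFAS1 did not overlap with full medium, as was so for 8.4% of all genes. At 0.28 mM no host passed edgeR's test, where 0.846% of all genes fell, and DESeq2 called 0 of the 9 for which it gave an adjusted p. An unadjusted edgeR p under 0.05 was found there for 2 of 10 hosts and 2196 of 13828 genes. SNHG15 came closest (-0.46, SE 0.13, adjusted p = 0.0549), and SNHG15 and ZFAS1 again lay wholly below full medium, beside 4.95% of all genes. The 4 comparisons share the same 3 full-medium libraries, so a high or low value there enters all of them. Scaled to the ERCC spike-ins, 5 hosts passed at 0.12 mM and 1 at each other concentration, and the genes called higher and lower were 76 and 1130 at 0.12 mM (610 and 539 with TMM), 141 and 280 at 0.20 mM (1061 and 989) and 18 and 102 at 0.28 mM (170 and 117).

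**Figure D2:**
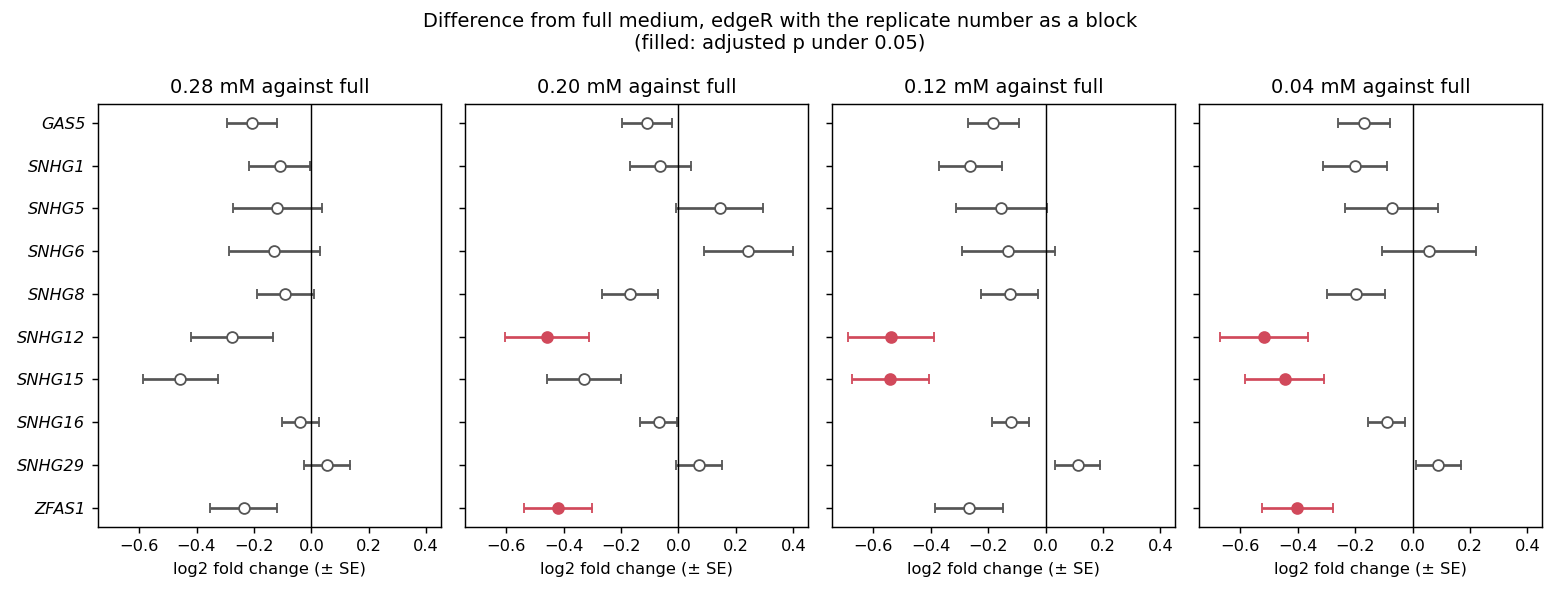
Log2 fold change against full medium (x axis, bars ± 1 SE) of the 10 host transcripts (rows) at each limited concentration (panels), from edgeR with the replicate number as a block; filled red points have an adjusted p under 0.05. The filled points belong to SNHG12, SNHG15 and ZFAS1 at 0.04 mM, SNHG12 and SNHG15 at 0.12 mM, and SNHG12 and ZFAS1 at 0.20 mM, and no point is filled at 0.28 mM.

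Across all media, the test for any difference among the 5 groups called SNHG15 (edgeR adjusted p = 0.0287) and SNHG12 (adjusted p = 0.0446), 2 of 10 where 10.7% of all genes were called, and gave ZFAS1 0.0725. Within the limited range the hosts showed no passing difference. Between 0.04 and 0.28 mM, edgeR called 0 of 10 hosts and 0.0434% of all genes. An unadjusted p under 0.05 was found there for 0 of 10 hosts and 1247 of 13828 genes. DESeq2 gave an adjusted p there for only 3 of the 10 (GAS5, SNHG16 and SNHG29) and called 0 of those, and by DESeq2 too 0 of 10 had an unadjusted p under 0.05. The host with the lowest adjusted p there was SNHG12, with a log2 fold change of -0.24 (SE 0.16, adjusted p = 0.693). The slope over log2 glutamine concentration in the 12 limited libraries passed for 0 of 10 hosts in edgeR, as for 0% of all genes. Its unadjusted p was under 0.05 for 0 of 10 hosts and for 1049 of 13631 genes. DESeq2 gave an adjusted p for the slope of the same 3 hosts only and called 0 of them, with 0 of 10 at an unadjusted p under 0.05. SNHG12 had the steepest slope, 0.08 log2 units per doubling (SE 0.04, adjusted p = 0.717). Neighbouring limited concentrations were not compared.

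Without the replicate block, 0 of the 10 hosts passed in any of these comparisons. In that fit all genes called, in either direction, were 0.0434% at 0.04 mM, 0% at 0.12 mM, 0.0145% at 0.20 mM and 0% at 0.28 mM. The fitted changes hardly moved: at 0.04 mM, SNHG12 had -0.51 (SE 0.22, adjusted p = 0.376), SNHG15 -0.46 (SE 0.17, adjusted p = 0.287) and ZFAS1 -0.41 (SE 0.14, adjusted p = 0.276), all with an unadjusted p under 0.05. Their standard errors with the block were 0.15, 0.14 and 0.12. Over all genes, 1609 of 13828 had an unadjusted p under 0.05 at 0.04 mM without the block. In the variance of log2 CPM, differences among replicate numbers exceeded those among groups for 6 of the 10 hosts. SNHG29 was the clearest of these, with 67.9% of its variance among numbers and 4.75% among groups. ZFAS1 and SNHG15 were at the other end, with 56.1 and 55.7% of their variance among groups and 3.09 and 8.31% among numbers. SNHG12 had 41.9% among groups. The median gene had 36.7% among numbers and 24.0% among groups, in the same direction as those 6 hosts. The shares were not adjusted for there being 5 groups and 3 numbers.

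Full medium replicate 2 was the library in which 8 of the 10 hosts had the highest of their 15 values, which was so for 7.84% of all genes. SNHG16 and SNHG29 were the exceptions. It had 9183710 gene counts, 1.36% in spike-ins and 0.00463% in mitochondrial ribosomal RNA, all within the range of the other libraries. In it GAS5 reached 229 CPM, SNHG1 79.3, SNHG8 92.5 and SNHG6 24.5, whereas the other full-medium libraries of these hosts had at most 178, 52.1, 70.0 and 14.7 CPM. Without that library, 0 of 10 hosts passed at 0.04 mM (edgeR, 1 with an unadjusted p under 0.05), and the hosts' median log2 fold change was -0.05. Over all genes 578 of 14195 were then called lower, against 861 of 13828 with it, and 3309 had an unadjusted p under 0.05. SNHG12 then had -0.29 (adjusted p = 0.274) and ZFAS1 -0.27 (adjusted p = 0.230), while SNHG15 kept -0.42 (SE 0.16, adjusted p = 0.0949). At 0.12 mM 1 host passed without it, and at 0.20 and 0.28 mM 0 did. For any difference among the 5 groups, 0 hosts passed without full medium replicate 2 or replicate 3. Leaving out 0.04 mM replicate 2 or replicate 3 also left 0 hosts called at 0.04 mM, leaving out full medium replicate 3 left 1, and leaving out full medium replicate 1 gave 4, with GAS5 added (-0.27, adjusted p = 0.0445). Genes called lower in these fits were, in the same order, 395 of 14197, 603 of 14144, 589 of 14179 and 1002 of 14204. At 0.12 mM, 0 passed without 0.12 mM replicate 2, and 1 without 0.12 mM replicate 1 or full medium replicate 3. Genes called lower there were, in turn, 244 of 14214, 363 of 14221 and 280 of 14179. At 0.20 mM, 0 passed without 0.20 mM replicate 3, and 1 without 0.20 mM replicate 1 or 2 or full medium replicate 3. Genes called lower there were, in turn, 558 of 14156, 481 of 14211, 706 of 14203 and 681 of 14179. At 0.28 mM, 2 passed without full medium replicate 1, and 332 of 14204 genes were called lower. The part of culture state or library preparation in this library's values was not tested.

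**Figure D3:**
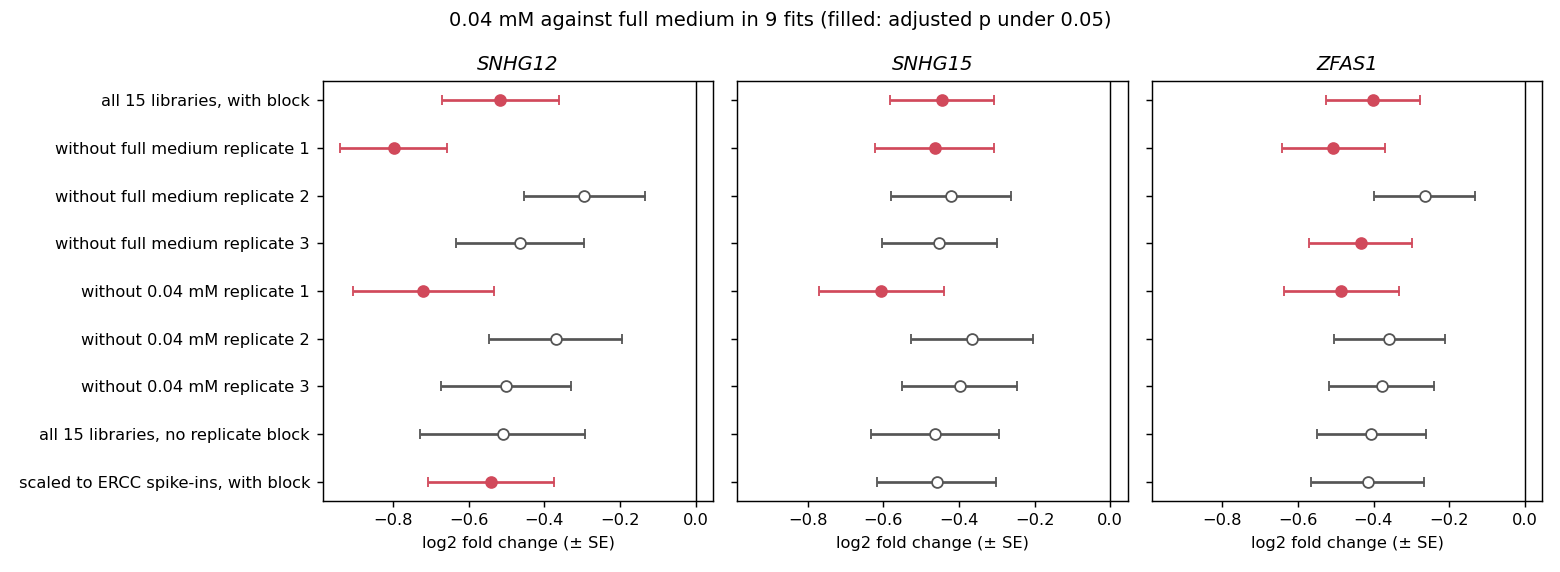
Log2 fold change at 0.04 mM against full medium (x axis, ± 1 SE) of SNHG12, SNHG15 and ZFAS1 in 9 fits (rows); filled red points have an edgeR adjusted p under 0.05. All points lie below 0, SNHG12 ranges from -0.80 to -0.29, and no point is filled without full medium replicate 2, without 0.04 mM replicate 2 or 3, or without the block.

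The snoRNAs inside the hosts were almost unmeasured. RefSeq placed 38 snoRNAs of 48 to 134 bases within the 10 hosts, 11 of them in GAS5 and 9 in SNHG1. A row of the table could be matched by identifier for 24 of the 38, and 20 of those rows held 0 counts in all 15 libraries. Those 20 snoRNAs share bases with annotated exons of their hosts on the same strand, and the 4 with counts do not. The part of this overlap in the zeros was not tested. SNORD12C in ZFAS1 had 209 counts over all libraries, SNORD99 in SNHG12 had 161, SNORD12B had 18 and SNORD1B, in SNHG16, had 12. The 2 snoRNAs with enough counts to test are shown as GENCODE 29 gives them on GRCh38, with box D, and for SNORD12C also box C, in capitals.
SNORD12C, chr20:49278940-49279028, plus strand: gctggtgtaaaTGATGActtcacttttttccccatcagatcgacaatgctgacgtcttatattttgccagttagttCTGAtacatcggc
SNORD99, chr1:28578749-28578822, minus strand: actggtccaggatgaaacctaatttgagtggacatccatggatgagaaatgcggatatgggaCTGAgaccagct
SNORD12C had 25, 29 and 11 counts in full medium and 11, 12 and 4 at 0.04 mM. Its log2 fold change was -0.84 (SE 0.50, edgeR adjusted p = 0.286). SNORD99 had 15, 26 and 9 counts in full medium and 17, 4 and 2 at 0.04 mM, a log2 fold change of -0.88 (SE 0.55, adjusted p = 0.313). Neither passed at any concentration, and whether the mature snoRNAs changed cannot be read from these low counts. Both lie in the hosts that fell, and host intron reads and mature snoRNA reads cannot be told apart in these rows.

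Several hosts share exonic sequence with other genes, and the strand rule of the counting is not given in the sources used here, so their values are uncertain to that extent. ZFAS1 (chr20:49278178-49289260, plus strand) shared 46.9% of its GENCODE 29 exonic bases with other genes, 11.1% with ZNFX1 on the other strand. SNHG6 shared 36.4%, SNHG16 33.4% and SNHG29 17.8%, while SNHG12 (chr1:28578538-28582983, minus strand) shared 9.54% and SNHG15 (chr7:44983023-44986696, minus strand) 3.65%, nearly all of it with their own snoRNAs. An opposite-strand gene started within 1 kb of 4 hosts. ZNFX1, an RNA helicase-like zinc finger gene that starts 248 bases from ZFAS1, fell at 0.04 mM (log2 fold change -0.25, SE 0.08, edgeR adjusted p = 0.0259) and at 0.20 mM (-0.29, SE 0.07, adjusted p = 0.00686), the concentrations at which ZFAS1 fell. SLC3A2, a heavy chain of amino acid transporters that starts 188 bases from SNHG1, had 0.05 (SE 0.07, adjusted p = 0.717) at 0.04 mM, and ZBTB37, 800 bases from GAS5, had -0.28 (SE 0.12, adjusted p = 0.102). The neighbour of SNHG16 was too low to test.

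Other snoRNA hosts and the proteins that act on snoRNAs were set beside the 10. Among 16 tested other noncoding hosts, 1 fell at 0.04 mM, SNHG17 (log2 fold change -0.29, SE 0.09, edgeR adjusted p = 0.0319), with a list median of -0.27. That count is close to the share of all genes, of which 6.23% fell and 7.21% rose. SNHG3 (-0.26, adjusted p = 0.0589) and SNHG19 (-0.60, adjusted p = 0.0664) did not pass. Of 35 protein-coding hosts outside the ribosomal proteins, 6 fell and 1 rose, with a median of -0.12, where 6.23% of all genes fell and 7.21% rose. NOP56, a core box C/D protein that is itself a host, had a log2 fold change of -0.47 (SE 0.07, adjusted p = 2.76e-05), and RCC1, the exchange factor for Ran encoded beside the noncoding host SNHG3, had -0.38 (SE 0.07, adjusted p = 0.000281). HSPA8, a heat shock chaperone, fell by 0.32 (SE 0.08), and IPO7, a nuclear import receptor, rose by 0.35 (SE 0.07).

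Among 21 snoRNP proteins and assembly factors, 7 fell and 0 rose, with a median of -0.17, where 6.23% of all genes fell and 7.21% rose. Besides NOP56 these included RUVBL2 (-0.30, SE 0.07, edgeR adjusted p = 0.00207) and RUVBL1 (-0.26, SE 0.07, adjusted p = 0.0110), the ATPases of the R2TP assembly complex, and NUFIP1 (-0.53, SE 0.14, adjusted p = 0.00846), an assembly factor. Of 20 NMD factors 2 fell, EIF4A3 (-0.26) and MAGOH (-0.45), both of the exon junction complex, and the list median was -0.04. Of 16 mRNAs known as NMD targets 4 fell and 0 rose, where 6.23% of all genes fell and 7.21% rose. Among the 4 were the splicing factors SRSF7 (-0.37) and TRA2B (-0.25), and the list median was 0.02. Counts are per gene, so isoforms degraded by NMD were not told apart from other isoforms of these genes. Of 22 TOP mRNAs outside the ribosomal proteins 2 fell and 1 rose (NAP1L1, 0.25), with a median of 0.01. Of 13 TOP regulators 1 rose, TIA1 (0.45, SE 0.09), which binds TOP mRNAs, and the median was -0.04. The counts of the NMD factors, TOP mRNAs and TOP regulators were at most 2 in each direction, beside the same shares of all genes. At 0.04 mM the medians of the 10 hosts, the other host lists, the snoRNP list, the NMD factors and the TOP regulators lay below the all-gene median of 0.01, and those of the NMD targets and TOP mRNAs did not. At 0.20 mM the medians of the NMD factors (-0.10) and NMD targets (-0.09) were like that of the 10 hosts (-0.09), and that of the protein-coding hosts was -0.06. Without full medium replicate 2 the counts at 0.04 mM were 0 of 16 other noncoding hosts, 5 lower and 2 higher protein-coding hosts and 4 lower snoRNP genes. The other lists then had 1 lower NMD factor, 4 lower NMD targets, 2 higher TOP mRNAs and 1 higher TOP regulator. Over all genes 578 of 14195 were lower and 682 higher in that fit. Without the block the counts were 0 in each list. Full medium replicate 2 held the highest value for 3 of the 16 other noncoding hosts, 14 of the 35 protein-coding hosts and 4 of the 21 snoRNP genes. It did so for 4 of 20 NMD factors, 6 of 16 NMD targets, 4 of 22 TOP mRNAs and 0 of 13 TOP regulators, beside 7.84% of all genes.

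**Figure D4:**
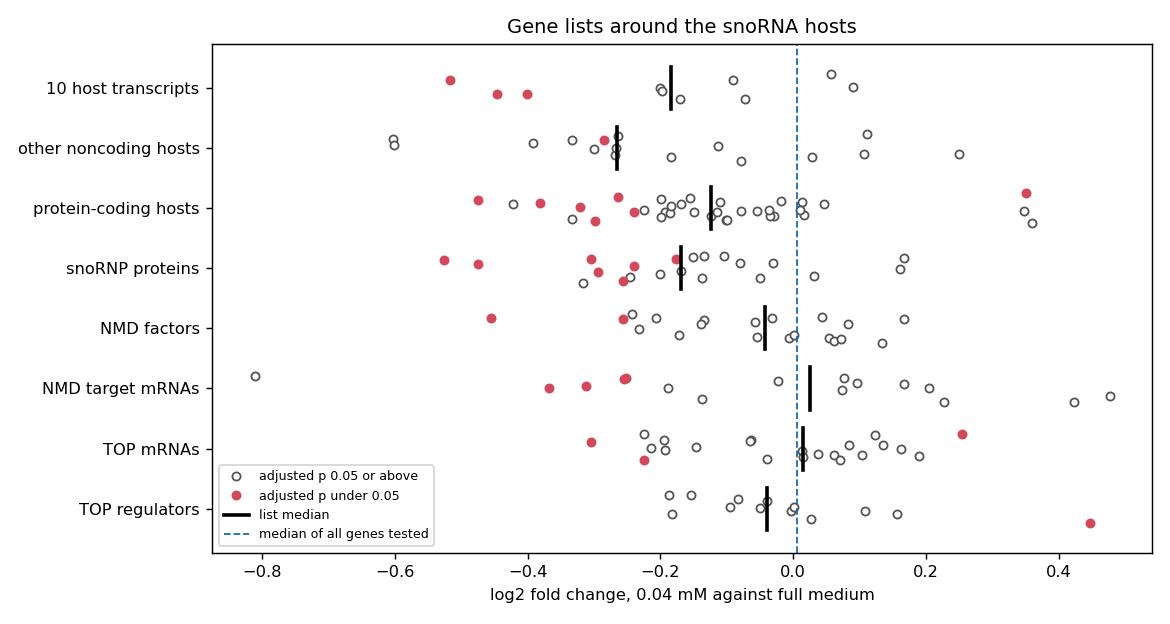
Log2 fold change at 0.04 mM against full medium (x axis) of each tested gene in 8 lists (rows), with red points at an edgeR adjusted p under 0.05, a black bar at each list's median and a dashed line at the median of all genes. The medians of the 10 hosts (-0.18), the other noncoding hosts (-0.27), the protein-coding hosts (-0.12) and the snoRNP genes (-0.17) lie left of the dashed line, as do those of the NMD factors (-0.04) and TOP regulators (-0.04).

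The hosts did not all follow one another. With replicate means removed, the correlation of each host's log2 CPM with the mean of the other 9 over the 15 libraries was 0.91 for GAS5, 0.88 for SNHG1, 0.79 for SNHG8 and 0.71 for ZFAS1. It was 0.64 for SNHG12, 0.57 for SNHG15 and 0.52, 0.47, 0.40 and 0.23 for SNHG6, SNHG16, SNHG5 and SNHG29. Among 10292 genes with a symbol and a mean of at least 5 CPM, the 5 most like the hosts' mean were WDR43 (r = 0.89), TIMM8B (0.88), PRMT7 (0.88), EIF4A1 (0.88), whose row can share reads with the overlapping SENP3-EIF4A1 readthrough, and FAM98A (0.86). WDR43 acts in early ribosome assembly and TIMM8B in mitochondrial protein import. TIMM8B fell at 0.04 mM (log2 fold change -0.37, edgeR adjusted p = 0.0342) and the other 4 did not pass. These correlations describe 15 libraries that share culture, library and replicate structure, full medium replicate 2 included. In bulk RNA, fewer cells with a transcript and less of it per cell cannot be told apart.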

How the data were processed

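The deposited table holds integer counts per gene and library, made by the authors from rRNA-depleted total RNA (KAPA HyperPrep with RiboErase, ERCC Mix 2, NextSeq, per the labels) of 15 libraries. The submitters' processing notes name GRCh38.p14, while for aligner, counter and strandedness the rule is not given in the sources used here. Of the columns, 15 matched a sample and 0 were left over. The 92 ERCC rows stayed out of library sizes and tests, and symbols were found for 42343 of 62754 genes. Genes were filtered with filterByExpr (minimum count 10, minimum total 15), and 1 quasi-likelihood fit of all 15 libraries was made in edgeR 4.0.16 (R 4.3.3) with TMM scaling, 1 term per group and the replicate number as a block. Adjusted p is Benjamini-Hochberg over 13828 genes with a threshold of 0.05 and no fold threshold. CPM uses TMM-scaled library sizes, log2 CPM a prior count of 2.

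The members, gene lists, tests and rule for named genes were chosen with earlier results of these data known. That holds for the block too: its pairing comes from the data (r over 0.1 in 30 of 30 pairs of equal number, and 15 of 15 libraries best matched by their own number), the labels do not say that numbers pair cultures, and it was known that a fit without it calls few genes. The fit without it stands beside the results for that reason. Named are all 10 hosts, the snoRNAs in them, opposite-strand neighbours within 1 kb, up to 4 list members with the smallest adjusted p at 0.04 mM, and the 5 genes most correlated with the hosts' mean. SNHG3, SNHG19 and the values of the cell type markers are outside that rule. Values by full medium replicate 2, TATATAA and the pyrimidine minimum were chosen after the values or sequences were seen, and several other motifs looked at beforehand are not tallied. Exon lengths, GC content and overlaps are from GENCODE 29, and gene coordinates and start regions from RefSeq GRCh38.p14. Alternatives were DESeq2 1.42.0 and other scalings, filters and sets of libraries. The code was tested on simulated data. Python 3.11.15 and matplotlib 3.10.9 made tables and figures. The proteome named in the title was not used here.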

Additional observations from a re-analysis of the deposited data

How the results depend on the processing

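Of the 10 hosts, 3, 2, 2 and 0 passed against full medium in turn from the lowest concentration to the highest limited one, and 2 in the test for any difference. With no replicate block these counts were 0, 0, 0, 0 and 0. With ERCC scaling they were 1, 5, 1, 1 and 2, and that scaling shifted the median of all genes to -0.18 at 0.12 mM, -0.13 at 0.28 mM and 0.13 for 0.04 against 0.28 mM. With GC and length offsets they were 1, 2, 0, 0 and 1. Leaving out the third replicate of all groups gave 0, 1, 0, 0 and 1, thinning to the shallowest library 0, 1, 0, 0 and 0, and leaving out the libraries over 1% mitochondrial rRNA 1, 2, 2, 1 and 1. Over all genes, those called lower at 0.04 mM were 861 in the main fit, 224 with ERCC scaling and 848 with the offsets. They were 396 without the third replicates, 716 after thinning and 670 without the libraries over 1% mitochondrial rRNA. In the same order of fits they were 539, 1130, 582, 181, 377 and 392 at 0.12 mM. At 0.20 mM they were 989, 280, 547, 341, 696 and 1030, and at 0.28 mM 117, 102, 111, 0, 88 and 132. For any difference 1473, 644, 914, 454, 1004 and 1358 genes were called. Genes tested were 13828 in the main, ERCC and offset fits, 14106 without the third replicates, 12084 after thinning and 14040 in the last. With only the compared groups in the fit, 1 host passed at 0.12 mM and 1 at 0.28 mM, and with no filter 1 at 0.28 mM and 3 for any difference. Genes called lower with only the compared groups were 126 of 13129 at 0.12 mM and 129 of 13017 at 0.28 mM. With no filter they were 153 of 32760 at 0.28 mM, and 1722 of 32760 genes were called for any difference. Leaving out 1 library gave 0 to 4 hosts at 0.04 mM, 0 to 3 at 0.12 mM, 0 to 2 at 0.20 mM, 0 to 2 at 0.28 mM and 0 to 2 for any difference. DESeq2, its size factors in edgeR and the 5 CPM filter kept the 5 counts. The count of 0 hosts held in each alternative run for 0.04 against 0.28 mM and for the slope, where DESeq2 gave an adjusted p for only 3 of the 10 hosts; at 0.28 mM against full medium it gave one for 9. SNHG12, SNHG15 and ZFAS1 stayed below 0 at 0.04 mM in each of 17 alternatives, passing in 8, 9 and 8 of them; without the block the same 3 had adjusted p of 0.376, 0.287 and 0.276.

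Against full medium, sign changes were limited to hosts that had not passed in the main fit. Without the third replicates SNHG5 turned to 0.14 and SNHG6 to -0.067 at 0.04 mM, and SNHG5 to 0.057 at 0.28 mM. Without the libraries over 1% mitochondrial rRNA, SNHG5 had 0.026 and SNHG6 -0.0028 at 0.04 mM. ERCC scaling gave SNHG29 -0.085 at 0.12 mM and -0.076 at 0.28 mM, and thinning gave SNHG6 0.12 at 0.28 mM. With single libraries left out, the ranges that crossed 0 were -0.33 to 0.078 (SNHG5) and -0.079 to 0.31 (SNHG6) at 0.04 mM, -0.28 to 0.13 (SNHG6) and -0.22 to 0.045 (SNHG8) at 0.12 mM, and -0.21 to 0.053 (GAS5), -0.14 to 0.092 (SNHG1) and -0.10 to 0.31 (SNHG5) at 0.20 mM. At 0.28 mM they were -0.21 to 0.050 (SNHG1), -0.37 to 0.042 (SNHG5), -0.27 to 0.12 (SNHG6), -0.16 to 0.041 (SNHG8) and -0.014 to 0.12 (SNHG29). Among the refitted values within the limited range, 19 for 0.04 against 0.28 mM and 23 for the slope changed sign, none of them with a passing test. SNHG15 was among these hosts. For 0.04 against 0.28 mM it had 0.011 in the main fit and -0.15 without 0.04 mM replicate 1. The cause of these changes was not tested. In 0.04 mM replicate 3 SNHG5 had 47 counts and SNHG12 65, and counting error was not separated from the spread between libraries.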
